A study of Mus musculus with 2 samples.

Results

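Peaks of the chromatin protein Sap130 whose centre lay in the protein-coding part of a gene's first exon are described here. The peaks come from 1 Sap130 ChIP library (rabbit antibody, 2 µg) and 1 library of input DNA, both prepared from B6 wildtype mouse brain at stage E13.5. Whole brain mixes cell types, so cells with and without a peak cannot be told apart, and the table holds no expression against which the tissue could be checked. ChIP-seq enriches crosslinked chromatin with an antibody and sequences the recovered DNA, and the input is the same kind of chromatin without enrichment. The submitters deposited 1 table of 16231 peaks, and its values are the position of each peak, its place in the list (its running number) and, for 12656 peaks, a gene with a RefSeq transcript model. The members were chosen by measured peak position and width: the label had to be a protein-coding transcript with 2 or more exons, the peak had to be under 2000 bp wide, and its centre had to fall inside exon 1 and inside the coding bounds. In all, 1652 peaks met the rule, at 1646 genes and 1650 transcript models. They made up 14.5% of the 11401 labelled peaks under the same limits on transcript, exons and width, called eligible peaks below (1652 of 11401, exact 95% interval 13.8 to 15.1).

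Sap130 is a subunit of the Sin3 histone deacetylase complex, a corepressor that is brought to chromatin by other proteins and removes acetyl groups from histones. The first exon of a messenger RNA begins at the transcription start and usually opens with an untranslated stretch, the 5′ UTR, before the start codon. In some genes the start codon lies only in a later exon, and in others exon 1 already encodes a long part of the protein. At promoters rich in CpG dinucleotides, which serve most broadly used genes, the open region around the start often continues into exon 1 and intron 1. The centre of a peak in coding exon 1 lies on DNA that is also translated.

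The promoters of the earliest members in the list whose start codon lay at most 30 bases after the labelled start show the first coding bases in sequence. Counted without a chromosome whose sequence is not printed, there were 132 such genes whose start was the same base in the RefSeq promoter table (GRCm38.p6), and the first 6 are printed. Each run holds 250 bases before the start and 50 bases from it on, on the gene's strand. Capitals mark the coding bases from the start codon on. Grwd1, a histone-binding protein that also acts in ribosome assembly, was shown from chr7:45830740-45831039 on the minus strand. Gm17296, a predicted gene, was shown from chr8:126475016-126475315 on the minus strand. Alg8, a glucosyltransferase of N-glycan assembly, was shown from chr7:97371367-97371666 on the plus strand. Srp72, a protein of the signal recognition particle, was shown from chr5:76974451-76974750 on the plus strand. 1600002K03Rik was shown from chr10:80172694-80172993 and Fbxw9, an F-box protein, from chr8:85059869-85060168, both on the plus strand.
Grwd1: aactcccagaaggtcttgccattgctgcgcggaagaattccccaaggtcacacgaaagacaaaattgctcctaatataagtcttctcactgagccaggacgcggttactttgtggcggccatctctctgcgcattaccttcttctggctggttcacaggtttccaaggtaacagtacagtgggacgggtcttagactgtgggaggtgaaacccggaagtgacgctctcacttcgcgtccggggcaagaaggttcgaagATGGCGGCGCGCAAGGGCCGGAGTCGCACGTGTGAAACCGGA
Gm17296: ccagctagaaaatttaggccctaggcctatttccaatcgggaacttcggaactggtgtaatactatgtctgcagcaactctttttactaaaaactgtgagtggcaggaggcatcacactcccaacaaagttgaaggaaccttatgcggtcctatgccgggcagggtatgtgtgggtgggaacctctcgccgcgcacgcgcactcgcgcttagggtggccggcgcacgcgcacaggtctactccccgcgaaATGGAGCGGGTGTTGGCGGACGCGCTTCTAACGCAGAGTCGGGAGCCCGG
Alg8: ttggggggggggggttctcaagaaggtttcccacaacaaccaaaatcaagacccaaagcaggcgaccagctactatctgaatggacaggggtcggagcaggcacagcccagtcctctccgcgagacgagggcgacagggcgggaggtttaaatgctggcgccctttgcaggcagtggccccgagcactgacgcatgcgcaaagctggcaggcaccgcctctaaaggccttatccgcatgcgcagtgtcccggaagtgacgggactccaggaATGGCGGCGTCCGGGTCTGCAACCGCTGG
Srp72: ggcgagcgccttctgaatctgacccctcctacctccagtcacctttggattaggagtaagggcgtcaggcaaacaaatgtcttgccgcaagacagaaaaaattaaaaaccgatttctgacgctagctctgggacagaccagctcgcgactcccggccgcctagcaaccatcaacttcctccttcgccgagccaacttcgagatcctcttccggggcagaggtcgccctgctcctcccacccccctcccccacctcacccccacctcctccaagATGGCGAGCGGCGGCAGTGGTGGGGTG
1600002K03Rik: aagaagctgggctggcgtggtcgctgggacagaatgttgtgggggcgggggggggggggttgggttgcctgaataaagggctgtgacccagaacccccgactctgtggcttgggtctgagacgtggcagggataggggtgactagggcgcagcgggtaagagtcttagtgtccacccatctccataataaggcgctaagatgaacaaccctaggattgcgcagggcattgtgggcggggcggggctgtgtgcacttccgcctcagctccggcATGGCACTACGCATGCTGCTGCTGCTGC
Fbxw9: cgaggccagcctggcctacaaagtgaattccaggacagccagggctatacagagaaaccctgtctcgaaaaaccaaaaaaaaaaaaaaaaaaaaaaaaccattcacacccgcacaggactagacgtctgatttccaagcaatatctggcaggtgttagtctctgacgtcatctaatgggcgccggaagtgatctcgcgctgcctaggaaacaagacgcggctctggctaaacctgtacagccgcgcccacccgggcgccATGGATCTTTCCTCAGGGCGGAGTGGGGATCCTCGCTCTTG

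In these 6 windows the start codon began 0 to 23 bases after the start, so 27 to 50 coding bases are visible at the right end. The Sap130 peak covered all 300 bases of the window at Alg8 and Srp72, 282 bases at Grwd1, 276 at Fbxw9, 204 at Gm17296 and 168 at 1600002K03Rik. The second codon was GCG, for alanine, at Grwd1, Alg8 and Srp72. The Gm17296 model began with the start codon itself, and 30 of the 1652 members had a model with no 5′ UTR at all, so the labelled start is then the start of the annotated coding sequence. The windows held 14 to 24 CpG dinucleotides.

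Most member peaks covered the start of the gene as well as the coding bases. The centre lay at a median of 216.8 bp after the labelled start (quartiles 143.4 and 326.5 bp, range 2.5 to 983.5 bp). All eligible centres lay between -997.5 and 1000.5 bp of the start, so no centre beyond about 1 kb could be a member. The median was 116.8 bp for the 2202 eligible peaks with the centre in the 5′ UTR of exon 1, called 5′ UTR peaks, and 318.5 bp for the 4725 in intron 1. These positions follow from the rule and are given as a description. The peak covered the transcription start at 80.6% of the members, against 89.6% of 5′ UTR peaks and 69.6% of intron 1 peaks. It covered the start codon at 96.9% of the members. Of the neighbours with the start codon in exon 1, 89.5% of 5′ UTR and 89.0% of intron 1 peaks covered it. The members' value follows in part from the rule. The end of exon 1 was covered at 90.1% of the members, against 83.2% and 91.4%, and the whole of exon 1 at 75.3%, against 77.2% and 69.6%. A median of 28.2% of a member peak's bases lay in the coding part of exon 1 (quartiles 15% and 48.9%), so the larger part of a typical member peak was not coding sequence. Peaks are the authors' calls and the table used here holds no summit, height or p-value, so the centre is the midpoint of the call.

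**Figure D1:**
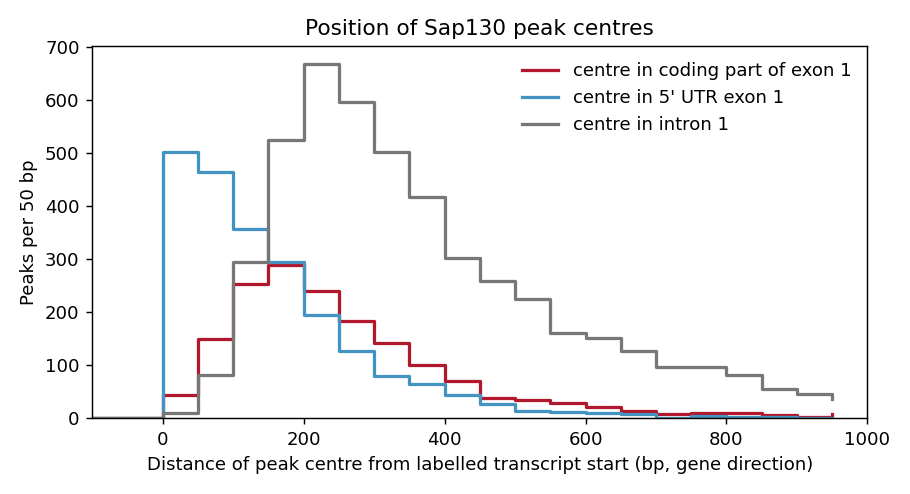
Number of eligible peaks per 50 bp of distance between the peak centre and the labelled transcript start, counted in gene direction, for coding exon 1 (red), 5′ UTR (blue) and intron 1 (grey) peaks. Red lies between the other colours, with medians of 216.8 bp for coding exon 1, 116.8 bp for 5′ UTR exon 1 and 318.5 bp for intron 1.

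In 320 members (19.4%) the whole peak lay after the labelled start. These peaks were narrow and late in the list, with a median width of 429 bp and a median place of 11921.5, against 760.5 bp and 6075.5 for all members. A peak centred near the start that does not reach it has a limited width, so the narrowness follows in part from this choice. Members late in the list were also narrower, so the late place is not a separate result. Another start of the same gene in the promoter table lay under 7 of the 320. In 29 members the peak lay wholly inside the coding part of exon 1. The earliest of them was at Rbm15, an RNA-binding protein of the m6A methyltransferase complex, where a 1178 bp peak at place 1472 (chromosome 3, 107331901 to 107333079) was centred on codon 197 of an exon 1 that encodes 955 of 962 residues. Others were Ntsr2, a neurotensin receptor (462 bp, place 9954, codon 81), Ccdc86 (319 bp, place 10920, codon 197) and Pdzrn3, a ubiquitin ligase (607 bp, place 11404, codon 107).

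The member models had a long coding stretch in exon 1 and a short 5′ UTR, which follows in part from the rule. By the rule the start codon lay in exon 1 at all members, against 58.6% of 5′ UTR peaks and 55.1% of intron 1 peaks. Exon 1 held a median of 196 coding bases in the members (quartiles 118 and 343), against 31 in 5′ UTR peaks and 15 in intron 1 peaks. The 5′ UTR had a median of 100 bases in the members, against 271 in 5′ UTR peaks and 139 in intron 1 peaks. Members without any coding base in exon 1 are impossible by the rule, and 4186 of the 11401 eligible peaks had such a model. Among the 7215 eligible peaks with a coding base in exon 1, 22.9% were members. That share was 4.86% where exon 1 had 1 to 49 coding bases, 27.3% from 100 to under 200 bases and 56.5% at 400 or more. It ran from 27.0% at a 5′ UTR of 30 bases or fewer to 14.4% at more than 400 bases. A longer coding stretch gives a centre more room to fall in it. These medians and shares therefore describe the geometry, and no preference was tested.

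**Figure D2:**
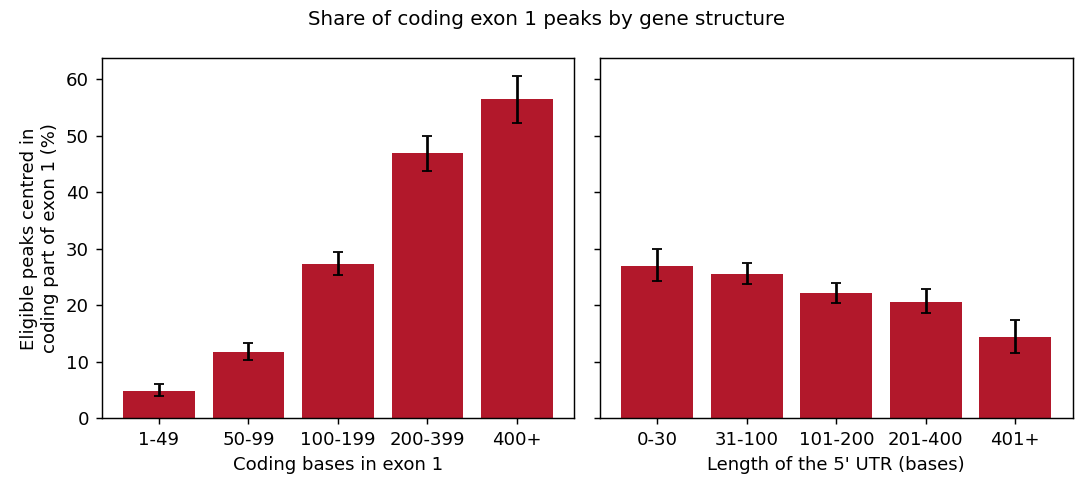
Share of eligible peaks that were centred in the coding part of exon 1, by the number of coding bases in exon 1 (left) and by the length of the 5′ UTR (right), over the 7215 eligible peaks with at least 1 coding base in exon 1. Bars start at 0 and the error bars are exact 95% binomial intervals. The share was 4.86% at 1 to 49 coding bases and 56.5% at 400 or more, while it was 27.0% at the shortest 5′ UTRs and 14.4% at the longest.

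The member models were shorter in the median than those of the neighbouring positions. Their median length was 21707 bp (interval 20296 to 23167), against 27306 bp for 5′ UTR peaks (25443 to 29322) and 26511 bp for intron 1 peaks. They had a median of 8 exons, against 9 and 10. Intron 1 had a median of 3978 bp in the members, against 4010.5 and 4727 bp. The coding sequence had a median of 1404 bases, against 1476 and 1392 bases. Where coding sequence continued after intron 1, that intron lay between codons (phase 0) in 43.3% of the members, against 40.5% of 5′ UTR and 45.9% of intron 1 peaks. A start of another gene on the other strand lay within 1000 bp upstream at 12.3% of the members (interval 10.8 to 14.0), against 15.6% of 5′ UTR peaks (14.1 to 17.2) and 636 of 4725 intron 1 peaks (interval 12.5 to 14.5%). The share of eligible peaks that were members ran from 11.2% on chromosome 16 to 16.9% on chromosomes 5 and 9, and was 15.6% on X (59 of 377). Of the members, 50.2% were at genes on the plus strand.

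The centre usually fell within the first 50 codons. The median codon at the centre was 31 (quartiles 14 and 54, highest 298). The centre lay at codons 1 to 10 in 19.6% of the members, at codons 11 to 25 in 23.1%, at codons 26 to 50 in 30%, at codons 51 to 100 in 20.4% and beyond codon 200 in 0.605% (10 peaks). Exon 1 held a median of 65 whole codons, the median protein had 467 residues, and its share of the coding sequence had a median of 15.2%. A centre that is off by 1 base can move the codon by 1, and 52.4% of the centres lay within 50 bp of the start codon or of the end of the coding part. The highest codons were 298 at Samd1, a protein that binds CpG islands (place 4913), 297 at Cpeb4, an RNA-binding translation regulator (place 16196), 280 at Onecut2, a homeodomain factor (place 14077), 255 at Lonrf1 (place 1531) and 238 at Cnnm3 (place 2090).

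**Figure D3:**
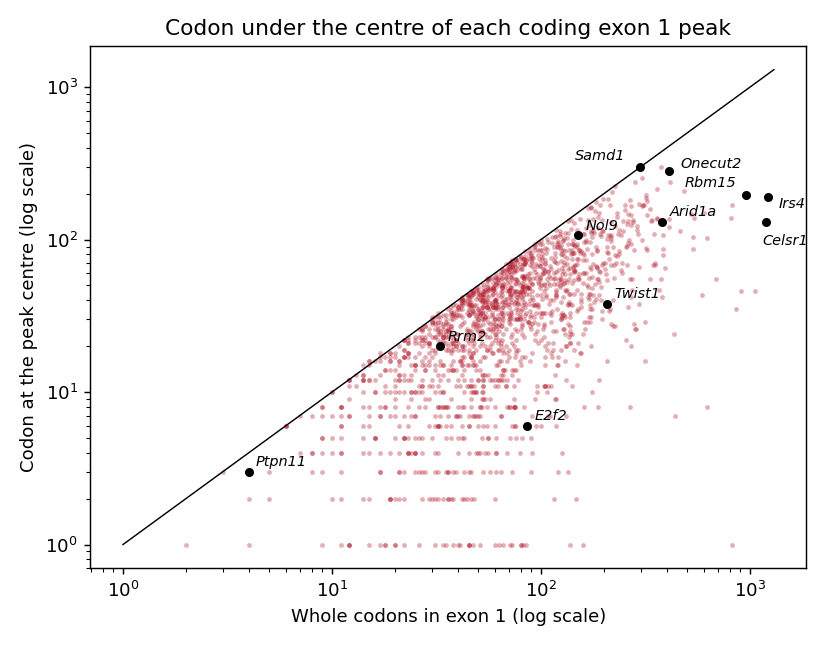
Codon under the peak centre against the number of whole codons in exon 1 for the 1652 coding exon 1 peaks, both on log scales. Each point is 1 peak, black points are named genes, and on the diagonal line the centre is at the last codon of exon 1. Samd1 at codon 298 lies on the line, whereas Irs4 at codon 189 of 1217 lies far under it.

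The 5 longest coding stretches were at Irs4, Celsr1, Arhgef17, Rbm15 and Vcpip1. Irs4, an adaptor of insulin receptor signalling on the X chromosome, had all 1216 residues in exon 1 and a 252 bp peak at place 15431 centred on codon 189. Celsr1, an atypical cadherin of planar cell polarity, had 1196 of 3034 residues in exon 1 and a 1529 bp peak at place 8653 centred on codon 131. Arhgef17, a guanine nucleotide exchange factor, had a 1019 bp peak at place 12688 centred on codon 46, and Vcpip1, a deubiquitinase, one of 1069 bp at place 5971, also at codon 46. The centres lay 361.5 to 798 bp after the start. Since no eligible centre lay beyond about 1 kb, a centre deeper in these exons could not have been a member.

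In 9 members the whole coding sequence lay in exon 1, and the other exons were untranslated. Among them, Trnp1, a nuclear protein of cortical progenitors, had a 780 bp peak at place 8657 centred on codon 68 of 223. Twist1, a bHLH factor of mesenchyme, had a 246 bp peak near the end of the list, at place 16136, centred on codon 38 of 206. Hrk, a proapoptotic BH3-only protein, had a 499 bp peak at place 9731. Further genes were Nupr1l (place 7883), Tmem238 (place 10602), Marveld1 (place 12639), Chst7, a sulfotransferase (place 15380), and Irs4.

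The first 15 member genes in the list are of several kinds. The earliest was Rrm2, the small subunit of ribonucleotide reductase, with a 1476 bp peak at place 12 (chromosome 12, 24707666 to 24709142). Its centre lay 151 bp after the start, at codon 20 of the 33 encoded by exon 1. Nol9, a kinase of ribosomal RNA processing, followed with a 959 bp peak at place 18 (chromosome 4, 152039194 to 152040153), centred on codon 107 of 151. Polr1b, the second-largest subunit of RNA polymerase I, had a 585 bp peak at place 44 centred on codon 29. Ebna1bp2, a ribosomal RNA processing factor, had an 863 bp peak at place 66 centred on codon 17. Dhx33, a helicase, had a 973 bp peak at place 74 centred on codon 59.

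Wdr4 and Thg1l, which act on transfer RNA, were also among the first 15. Wdr4, the partner of the tRNA methyltransferase Mettl1, had a 941 bp peak at place 35 (chromosome 17, 31511697 to 31512638), centred on codon 72, the last whole codon of exon 1. Thg1l, which adds a guanosine to histidine tRNA, had an 894 bp peak at place 53 centred on codon 50. E2f2, a cell cycle transcription factor, had a 1112 bp peak at place 64 centred on codon 6, after a 5′ UTR of 387 bases. The remaining genes of the first 15 were Ubfd1 (place 19), BC048403 (30), Scfd2 (38), Rnf166 (40), Grwd1 (47), Wbscr16 (57) and Nufip1, a factor of small nucleolar RNP assembly (70). Across the 15, widths ran from 585 bp at Polr1b to 1859 bp at Ubfd1, and codons from 6 at E2f2 to 107 at Nol9.

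Coding exon 1 peaks took a smaller share of the eligible peaks late in the list. The quantity that orders the list is not stated in the sources used here. The share of members was 18.4% in the first of 10 equal stretches of the list (245 of 1335, interval 16.3 to 20.5) and 10.1% in the last (65 of 642, interval 7.9 to 12.7). Over the same stretches the share of peaks centred upstream of the start was 15.6% and 41.4%, and that of intron 1 peaks 43.2% and 30.5%. The median width of the members was 1044 bp in the first stretch and 271 bp in the last. Their median distance from the start stayed between 191.5 and 245.8 bp in all 10. Median place was 6075.5 for the members, against 6792.5 for 5′ UTR peaks and 6137 for intron 1 peaks, and median width 760.5 bp, against 809.5 and 767 bp. The interval of the members' median place, 5717 to 6417, overlapped that of intron 1 peaks, 5955 to 6298.

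**Figure D4:**
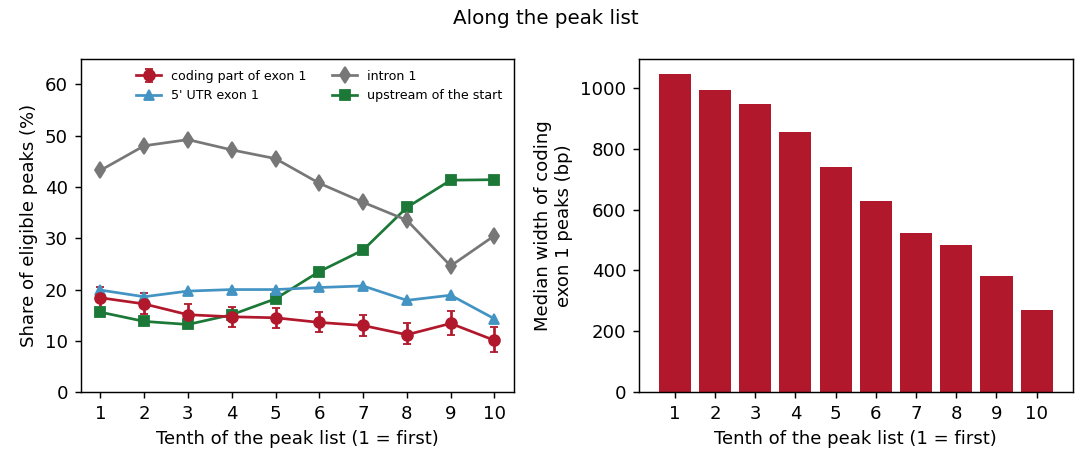
Left, share of eligible peaks with the centre in the coding part of exon 1 (red, with exact 95% binomial intervals), in the 5′ UTR of exon 1, in intron 1 and upstream of the start, for 10 equal stretches of the peak list. Right, median width of the coding exon 1 peaks in each stretch. The red share was 18.4% in the first stretch and 10.1% in the last, and the median width 1044 and 271 bp.

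The share of genes with a coding exon 1 peak was 0 to 25.6% over 16 gene lists. Of the 1218 genes of any list with an eligible peak, 164 had a member peak (interval 11.6 to 15.5%). Over all 9662 genes with an eligible peak, 1646 (17.0%) had at least 1 member peak. The lists were read against this share, with no test, because 1 peak list has no replicate and its genes are not independent. For most lists the median number of coding bases in exon 1 over genes with an eligible peak is given, which was 48 over all genes. Among genes with 100 or more such bases, the share of members was 42.9% over all genes (1341 of 3126). This second share was higher for mitochondrial ribosomal proteins (12 of 22), ribosome biogenesis genes (6 of 12) and solute carriers (29 of 60). It was close to 42.9% for cell cycle (9 of 22) and tRNA genes (8 of 19). It was lower for chromatin (8 of 24), Sin3-HDAC (3 of 9) and heart disease genes (4 of 12). No interval was computed for this second share, and its counts are small in most lists. For the other lists it is treated with the list below. The exact interval contained 17.0% in 13 of the 16 lists. It lay under 17.0% in 3, the cytosolic ribosomal proteins, the Zfp zinc finger genes and the synaptic genes. The interval over the genes of any list also lay under 17.0%. The part of gene structure in the differences between lists was not tested beyond these values.

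Genes of Notch, Wnt and hedgehog signalling, which pattern the neural tube and keep progenitors dividing, had member peaks at 10 of 39 (25.6%, interval 13.0 to 42.1), with a median of 73 coding bases in exon 1. Dvl1, a Dishevelled protein that relays Wnt signals, had a 998 bp peak at place 1175 centred on codon 42. Its relative Dvl2 had a 1224 bp peak at place 1972 centred on codon 7. Sufu, an inhibitor of Gli factors, had a 705 bp peak at place 4318 centred on codon 30, and Smo, the hedgehog signal transducer, a 1209 bp peak at place 5380 centred on codon 19. The others were Lfng, Tcf7l1, Notch3, Tcf7l2, Mfng and Apc2. All 10 were among the 15 genes of the list with 100 or more coding bases in exon 1 (66.7%).

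Transcription factors of the developing nervous system had member peaks at 17 of 73 genes (23.3%, interval 14.2 to 34.6). Their exon 1 held a median of 115 coding bases, and among the 37 genes with 100 or more the share was 43.2%. With centres limited to 500 bp from the start the list's share was 13.2% (interval 5.48 to 25.3). The member peaks stood late in the list, with a median place of 10924, against 6075.5 for all members. The places of these genes' eligible peaks at other positions were not compared. Dlx2, a homeodomain factor of GABAergic neuron development, had an 1830 bp peak at place 5252 (chromosome 2, 71545224 to 71547054) centred on codon 85. Its neighbour Dlx1 had a 225 bp peak at place 15949 centred on codon 88. Sox9, a factor of glial and neural stem cells, had an 889 bp peak at place 6193 centred on codon 19. Pbx4 had a 644 bp peak at place 6489 centred on codon 23.

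Zic2, a zinc finger factor of forebrain midline development, had a 1787 bp peak at place 6521 centred on codon 213 of 357 in exon 1. Six3 and Gsx2, homeodomain factors of the eye field and of the ventral forebrain, had 947 and 319 bp peaks centred on codons 166 and 169. Eomes, the T-box factor of intermediate progenitors, had a 565 bp peak at place 15285 whose centre lay 983.5 bp after the labelled start, at codon 171, and which lay wholly inside the coding part. Further genes of the list were Ebf3, Irx3, Pou4f1, Lhx5, Gbx2, Dlx6, Nkx2-1 and Pou2f1. Widths in this list ran from 225 bp at Dlx1 to 1854 bp at Ebf3. Genes beyond the first 4 of this list were named after their values had been seen.

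Mitochondrial ribosomal, nucleolar and cell cycle genes had shares between 18.8% and 23.5%, with intervals that contained 17.0%. Mitochondrial ribosomal proteins had member peaks at 16 of 68 genes (23.5%, interval 14.1 to 35.4; median 65.5 coding bases). Mrpl27 had an 882 bp peak at place 1177 centred on codon 13, the last whole codon of its exon 1, and Mrps18a a 761 bp peak at place 2484 centred on codon 24. Ribosome biogenesis genes reached 11 of 52 (21.2%, interval 11.1 to 34.7; median 66 bases), with Nol9, Polr1b, Ebna1bp2 and Noc2l earliest. Noc2l had a 1153 bp peak at place 241 centred on codon 4 of an exon 1 with 8 whole codons. Cell cycle and replication genes reached 12 of 64 (18.8%, interval 10.1 to 30.5; median 71 bases). After Rrm2 and E2f2 came E2f1, with a 1542 bp peak at place 437 centred on codon 69, and Cdc20, an activator of the anaphase-promoting complex, with a 1179 bp peak at place 697 centred on codon 8.

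Solute carriers, the membrane transporters of small molecules, had member peaks at 34 of 172 genes (19.8%, interval 14.1 to 26.5; median 37 bases). Slc25a25, Slc7a5 and Slc25a38 were among the earliest, at places 1307, 1641 and 2008. Slc7a5, a transporter of large neutral amino acids, had a 1782 bp peak centred on codon 111. Slc7a6os at place 281 is caught by the symbol pattern and is not itself a transporter. Genes of tRNA charging and modification reached 9 of 57 (15.8%, interval 7.48 to 27.9; median 58 bases), led by Wdr4, the pseudouridine synthase Trub1 (place 321), the dihydrouridine synthase Dus3l (place 562) and Yars2 (place 1820).

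Of the Sin3-HDAC list, 3 of 20 genes had a member peak (15%, interval 3.21 to 37.9; median 82.5 bases). Suds3, a core subunit of the complex, had a 1126 bp peak at place 2108 (chromosome 5, 117115120 to 117116246) centred on codon 44. Foxk1 and Foxk2, forkhead factors that bind Sin3, had peaks of 1375 and 1804 bp at places 2163 and 2738, centred on codons 29 and 31. Chromatin regulators reached 12 of 85 (14.1%, interval 7.51 to 23.4; median 25 bases). Among them were the acetyltransferase Kat2a (587 bp, place 342, codon 21), the BAF subunit Arid1a (1547 bp, place 768, codon 131 of 381 in exon 1) and its partner Smarcd2 (860 bp, place 2807, codon 59). Congenital heart disease genes reached 6 of 35 (17.1%, interval 6.56 to 33.6; median 79 bases), with Pkd1 (place 900), Ptpn11 (place 965), Dync2h1 (place 7515) and Anks6 (place 9536) earliest. At Ptpn11, the phosphatase of RAS signalling, exon 1 held 14 coding bases and the centre fell on codon 3.

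Several lists had shares under 17.0%, and most of these had a median under the 48 coding bases of all genes. Among genes with 100 or more such bases, synaptic genes (3 of 13), splicing factors (3 of 12) and autism genes (5 of 15) also had shares under 42.9%. The part of gene structure in the low shares was not tested. No cytosolic ribosomal protein gene had a member peak, 0 of 64, with an exact 95% upper limit of 5.6%. By the rule that a count of 0 allows 3 counts of the total, the share could be up to 4.69%. Their exon 1 held a median of 3 coding bases, the length of a start codon, and only 1 of the 64 had 100 or more. Zinc finger genes with a numbered Zfp symbol had member peaks at 14 of 278 (5.04%, interval 2.78 to 8.31), and 163 of the 278 had no coding base in exon 1. Among their 27 genes with 100 or more such bases, 40.7% were members, close to the 42.9% of all genes. The earliest were Zfp367 (1560 bp, place 829, codon 54), Zfp318 (place 1059), Zfp653 (place 1110) and Zfp598 (place 1423).

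Synaptic adhesion and receptor genes had member peaks at 3 of 52 (5.77%, interval 1.21 to 15.9; median 4 bases), and autism genes at 6 of 65 (9.23%, interval 3.46 to 19.0; median 0 bases). The synaptic members were Grin2d, an NMDA receptor subunit (525 bp, place 8561, codon 55), Nlgn2, an adhesion protein of inhibitory synapses (411 bp, place 9160, codon 86), and Dlg3 (760 bp, place 9884, codon 15). The autism list was led by Katnal2 (368 bp, place 1248), Reln, the secreted organiser of cortical layers (1048 bp, place 4617, codon 66), Upf3b (place 7913) and Anks1b (place 8345). Axon guidance genes reached 5 of 63 (7.94%, interval 2.63 to 17.6) although their median of 55 coding bases was above that of all genes. Among their 18 genes with 100 or more, 22.2% were members. The 5 members of the whole axon guidance list were Unc5a, a netrin receptor (612 bp, place 4838, codon 12), Crmp1 (place 5432), Sema4f (place 7529), Slit1, a repellent ligand (1027 bp, place 9481, codon 50), and Plxnd1. Splicing factors reached 5 of 49 (10.2%, interval 3.4 to 22.2; median 34 bases), with Srsf6 (1687 bp, place 1014), Srsf11 (place 1015), Sf3b4 and Sf3a1 earliest.

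**Figure D5:**
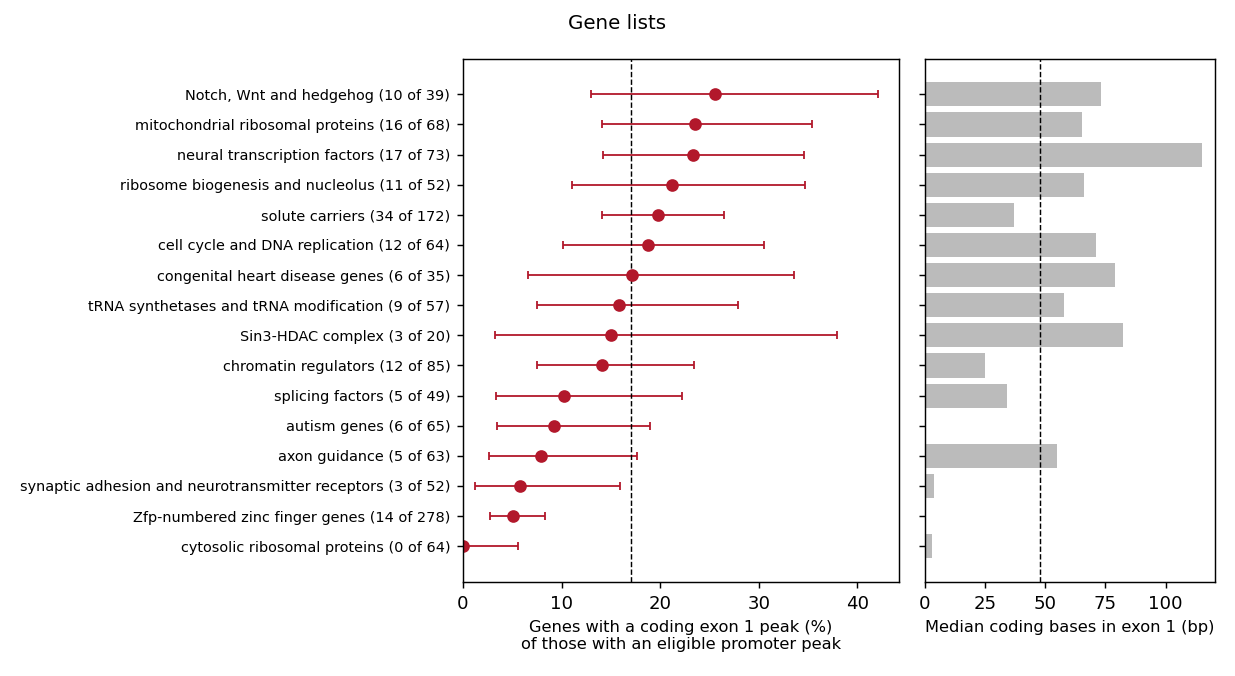
Left, share of genes with at least 1 coding exon 1 peak among the genes of each list with an eligible promoter peak, with exact 95% binomial intervals. The dashed line marks the 17.0% of all 9662 genes. Right, median number of coding bases in exon 1 over the same genes, with a dashed line at the 48 of all genes. The share was 25.6% for Notch, Wnt and hedgehog genes and 0 of 64 for cytosolic ribosomal proteins, where exon 1 held a median of 3 coding bases. The intervals of the upper lists overlap, and their order changed between alternatives.

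Of the cell type markers, the radial glia gene Fabp7 (312 bp, place 15787, codon 9) and the neuronal gene Nefl (1245 bp, place 9562, codon 109) had member peaks. Of the 10 progenitor and 10 neuron markers, 4 and 5 had an eligible peak. The shares were thus 1 of 4 (interval 0.631 to 80.6%) and 1 of 5 (interval 0.505 to 71.6%). Both intervals contained the 17.0% of all genes. None of the 8 erythroid, 8 microglia and 8 endothelial or mural markers had an eligible peak, so the rule could not place any of them.

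A pair of member peaks was found at 6 genes. Srsf11, a splicing factor, had them at different starts on chromosome 3, of 1145 bp at place 1015 (codon 40) and of 1017 bp at place 3431 (codon 2). Pde4dip, Dnajc6 and Oxr1 also had theirs at different labelled starts. At Onecut2 and Pcdhgc4 both peaks lay in the same exon 1. The Onecut2 peaks, of 343 and 229 bp, were centred on codons 136 and 280 of 410. Those of Pcdhgc4, a clustered protocadherin, were 315 and 502 bp wide and centred on codons 1 and 169 of 817. In all, 243 of the 1646 member genes carried another labelled peak. Of the 271 labelled peaks of member genes that were not members, 181 were centred upstream of the start, 56 in intron 1 and 30 in the 5′ UTR of exon 1. Among all 11401 eligible peaks, 2558 were centred upstream, with first and further peaks of a gene counted together. Further peaks were not counted over all genes, so neither count is read as particular to the members.

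Promoter sequence was taken from the RefSeq windows of 300 bases, of which 1246 of the 1652 members matched one whose start lay within 100 bp of the labelled start. The members' windows held a median of 22 CpG dinucleotides (quartiles 16 and 29), against 24 for 5′ UTR peaks, 23 for intron 1 peaks and 7 for all 32851 windows of the table. Their median G and C content was 62.3%, against 63.3%, 62.3% and 52.7%. The members were close in composition to the other Sap130 promoters, and all 3 positions had more CpG than the median of the whole table.

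Letters of 12 known motifs were counted on both strands. AAGATGGCG, from the site of the zinc finger factor YY1, was found in 4.33% of the members' windows (54 of 1246, interval 3.27 to 5.62), against 1.72% of 5′ UTR windows (interval 1.15 to 2.48), 4.19% of intron 1 windows and 1.40% of all windows. Its inner part ATGGCG was in 20% of members, against 13.1%, 18.4% and 8.93%. The GC box GGGGCGGG was in 33.9%, against 32.7%, 41.0% and 16.5%, and the ETS site CCGGAAGT in 8.83%, against 11.7%, 8.38% and 3.89%. The NRF1 letters GCGCATGCG were in 3.93%, against 4.68%, 4.93% and 1.75%. The E-box CACGTG was in 11.1%, against 11.8%, 10.5% and 7.15%. The TATA box letters TATAAA were in 5.62%, against 4.18%, 5.29% and 13.6%.

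CCAAT was in 40.0% of the members' windows, against 37.0% of 5′ UTR windows, 41.0% of intron 1 windows and 37.4% of all windows. TGACGTCA, bound by Creb and Atf factors, was in 3.21%, against 3.63%, 4.05% and 1.79%. The E2F letters TTTGGCGC were in 1.28%, against 1.05%, 1.08% and 0.514%. Their variant TTTCCCGC was in 2.65%, against 2.34%, 2.21% and 1.07%. TACAATTCC, from the ZNF143 site, was in 0.803%, against 0.615%, 1.16% and 0.390%. A match is a description of the letters and not a bound site.

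The YY1 letters contain ATG and can therefore hold the start codon. In windows with the same start, the start codon lay inside the window of 235 members, against 29 of the 5′ UTR peaks and 335 of the intron 1 peaks. Where the start codon and the second codon both lay inside it, AAGATGGCG held the start codon in 25 of 221 members (11.3%, interval 7.46 to 16.2), against 3 of 28 5′ UTR peaks (10.7%) and 48 of 322 intron 1 peaks (14.9%, interval 11.2 to 19.3). The second codon was GCG in 34.8% of these members, against 32.1% and 41.3%. Grwd1 and Srp72, printed above, are such genes. The next in the list were Kctd2 at place 547, in the window chr11:115419876-115420175 on the plus strand, and Taf4a, a TFIID subunit, at place 619, in chr2:179976597-179976896 on the minus strand. Their start codons are shown in capitals, with the 18 bases before them and up to 9 bases after them.
Kctd2: gggcagcggcggcccaagATGgcgga
Taf4a: cggcggcgaggaggaaagATGgcggcgggc

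At the edges of the rule, members and non-members differed by a few bases. The widest members were 1190002N15Rik (1999 bp), Trim28 (1995 bp) and Ppp1r15b (1988 bp), and the narrowest peaks just over the width limit were Strn3 (2002 bp), Srsf4 (2011 bp) and Klf13 (2020 bp). Whether the deposited peak bounds count from 0 or 1 is not stated, which can move centres by up to 1 bp and so decide membership of the peaks at the following limits. As computed, in Mettl13, Chmp4b and Tctn3 the centre was on the first coding base, whereas in Ercc8, Gtf2h3 and Mxd4 it lay 0.5 bp before it. In Tefm, Nsun5 and D2Wsu81e the centre was on the last base of exon 1, and in Ddx56, Fnbp1 and Igsf11 0.5 bp past it. A further 60 peaks of multi-exon genes were centred in coding exon 1 but were 2000 bp or wider, and 151 more belonged to genes with 1 exon. Exactly 2 exons were found in 110 of the members.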

How the data were processed

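One Sap130 ChIP library and 1 input DNA library from wild-type embryonic mouse brain were compared. Per the submitters' processing notes, Bowtie 1.1.2 and MACS2 2.1.0.20140616 were used with GRCm38 (mm10). No source used here gives the alignment settings, the peak threshold, what orders the list or how genes were joined to peaks. The table deposited by the submitters holds peak bounds but no height, fold or p-value, and library depth is therefore unknown. No replicate was analysed here, no test was run, and shares carry exact (Clopper-Pearson) 95% intervals that cover counting error only. Intervals of medians are exact binomial order-statistic intervals.

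Model starts and ends in the table are both counted from 0 and lie inside the feature. Read so, the coding length was a multiple of 3 in 1646 of 1652 members, and lengths were computed accordingly. ATG stood at the coding start in 234 of 235 members with that base inside a RefSeq promoter window. Peak bounds are printed as deposited. Whether they count from 0 or 1 is not stated, so a centre can be off by up to 1 bp and a codon by 1. The placing of centres was tested on simulated data. Gene symbols that a spreadsheet had turned into dates (27 labels, 3 of them members: Marchf9, Mtarc2 and Marchf11) were restored from the transcript accession. Lists were matched by symbol and synonym. No sequence of chromosome 18 is printed, and the 132 genes from which the printed promoters were taken leave it out.

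The members and lists were chosen with earlier results of these data known. Named genes are the first 15 by running number, the first 4 of each list, the longest coding stretches, the highest codons and genes with several member peaks, and any others were chosen after their values were seen. Some genes that meet these rules are not reported here. Residues were counted from the transcript models. Alternatives were a 500 bp window, the first 8115 peaks, no width limit, at least 50% of the peak in coding exon 1, centres moved by 50 bp, 1 peak per gene, and no sex or mitochondrial chromosomes. Python 3.11.15, pandas 2.3.3, NumPy 2.4.6, SciPy 1.17.1 and matplotlib 3.10.9 were used.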

Additional observations from a re-analysis of the deposited data

How the results depend on the processing

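The count, share, median place, width, distance and codon of the coding exon 1 peaks, and the share over genes of all lists, were recomputed under 8 alternatives. A value was taken as moved when it left the 95% interval of the reported one, or for the count when it changed by more than 1.5 times. Without a width limit and without X, Y and the mitochondrial chromosome, none of these 7 values moved. Requiring 50% of the peak in coding exon 1 moved all of them. It gave 398 peaks, 3.49% of eligible peaks, median place 9671, width 558.5 bp, distance 290.2 bp and codon 55. It also gave 2.71% of list genes, against a reported interval of 11.6 to 15.5%. The first 8115 peaks gave 1058 peaks, 16%, median place 3782 and width 920.5 bp. The lower count and place follow from the cut itself, and members were wider early in the list. Centres within 500 bp gave a share of 15.9% and a distance of 202.5 bp, and 1 peak per gene a share of 16.3%. Moving the centre 50 bp in gene direction gave 13.6%, a width of 790.5 bp, a distance of 243.8 bp and codon 35. Moving it 50 bp against gene direction gave a width of 730 bp, a distance of 184 bp and codon 26. A limit on the distance and a move of the centre act on distance and codon directly. Of 16 single lists, 14 moved with 50% of the peak required. With centres within 500 bp 1 moved (neural transcription factors, 13.2%), in the first 8115 peaks 1 (synaptic genes, 0%, interval 0 to 28.5), and none under the other 5 alternatives. The synaptic interval also contained 17.0% with centres moved 50 bp in gene direction (9.62%, interval 3.2 to 21.0). Under the remaining alternatives it lay under 17.0%, a share over all genes that was not recomputed for any alternative. With 50% of the peak required this comparison cannot show a low share, because the share over genes of all lists was itself 2.71%. The order of lists was not fixed, and their intervals overlapped. In the first 8115 peaks neural transcription factors had 33.3% (interval 13.3 to 59.0) and Notch, Wnt and hedgehog genes 21.7% (interval 7.46 to 43.7).

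A stricter score could not be tried, since the table used here gives none. Leaving out a replicate was not possible. No paired analysis was possible because each kind of DNA has a single library.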
